A study of Mus musculus with 8 samples.

Results

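Eph receptors and ephrins, Slits and Robos, and netrins with their receptors are 3 of the classical guidance systems, and 41 mouse protein-coding genes belong to them by symbol. They were taken from GENCODE M21 as every protein-coding gene named as an EphA or EphB receptor, an ephrin-A or ephrin-B, Slit1 to Slit3, Robo1 to Robo4, a netrin or netrin-G, Unc5a to Unc5d, Dcc or Neo1. The rule used no measured value. All 41 were found among the 32780 genes of the tables, 21860 of them protein-coding, through 222 transcripts. They comprise 9 EphA and 5 EphB receptors, 5 ephrin-A and 3 ephrin-B ligands, 3 Slits, 4 Robos, 4 netrins, 2 netrin-G proteins, 4 Unc5 receptors, and Dcc with neogenin (Neo1).

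The study, by its title, concerns cohesin during differentiation. Total RNA was measured in TC1, a wild-type line of mouse embryonic stem cells, with 4 libraries of cells differentiated for 10 days (day 10) and 4 libraries of the stem cells at day 0. The labels give no differentiation protocol or cell type beyond differentiated cells, no agent, and no other genotype, and all groups are 1 line. The labels do not say whether the 4 libraries of a group are separate cultures, and p-values here then measure the spread among libraries, which may be technical. The labels give no batch, and day and any unrecorded batch cannot be told apart. Libraries held 13525255 to 17843651 estimated counts at day 10 and 11242568 to 15808039 at day 0.

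Ephrins are ligands fixed to the cell surface, ephrin-As by a lipid anchor and ephrin-Bs by a transmembrane segment, and their contact with Eph receptor tyrosine kinases on a neighbouring cell sends signals into both cells, often ending in repulsion and in sharp borders between tissues. Slits are secreted proteins that repel cells bearing Robo receptors, and netrins are secreted relatives of laminin that attract through DCC and neogenin and repel through Unc5 receptors. Outside the nervous system the same genes are known from vessels, where ephrin-B2 marks arteries and EphB4 marks veins, and from the forming heart, where Slit-Robo signalling takes part in shaping the heart tube and its septa and valves.

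Levels are given as TPM, a transcript abundance scaled for transcript length and library, summed over the isoforms of a gene. Differences are log2 changes of day 10 over day 0 from edgeR's quasi-likelihood test on estimated counts summed per gene. A gene is called at a Benjamini-Hochberg adjusted p under 0.05 over all 15097 genes tested. The SE given with a change is its absolute value divided by the square root of the test's F statistic. It is not a direct estimate of error and can be too small where a day has few counts. The exact intervals given below for Epha3 and Ntng1 are wider than their SEs imply. In bulk RNA, fewer cells of a type and less RNA per cell cannot be told apart.

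The promoters of 4 members that took different courses are shown first, as the 250 bases before the RefSeq transcription start on GRCm38.p6, 5′ to 3′ on the strand of the gene, with CpG dinucleotides in capitals. Epha3 was near 0 at day 0 and high at day 10, Slit2 was low at day 0 and high at day 10, Epha2 was the member with the highest level at day 0 and lower at day 10, and Robo4 was not called in either direction.
Epha3, chr16:63864176-63864425, minus strand: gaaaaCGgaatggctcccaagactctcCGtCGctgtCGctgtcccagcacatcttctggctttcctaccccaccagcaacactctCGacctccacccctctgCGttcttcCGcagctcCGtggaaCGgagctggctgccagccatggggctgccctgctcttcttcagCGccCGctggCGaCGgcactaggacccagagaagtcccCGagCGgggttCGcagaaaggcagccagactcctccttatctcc
Slit2, chr5:47982905-47983154, plus strand: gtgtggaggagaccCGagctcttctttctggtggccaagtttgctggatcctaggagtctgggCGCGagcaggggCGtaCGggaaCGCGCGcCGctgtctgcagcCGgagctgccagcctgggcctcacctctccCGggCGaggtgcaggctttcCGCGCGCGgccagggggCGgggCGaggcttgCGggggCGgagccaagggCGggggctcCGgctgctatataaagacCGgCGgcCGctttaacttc
Epha2, chr4:141300971-141301220, plus strand: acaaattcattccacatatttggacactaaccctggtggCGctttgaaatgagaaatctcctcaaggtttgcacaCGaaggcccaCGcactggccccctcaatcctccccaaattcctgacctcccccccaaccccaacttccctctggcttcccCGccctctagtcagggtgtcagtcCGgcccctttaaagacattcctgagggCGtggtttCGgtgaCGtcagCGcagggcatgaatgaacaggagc
Robo4, chr9:37401722-37401971, plus strand: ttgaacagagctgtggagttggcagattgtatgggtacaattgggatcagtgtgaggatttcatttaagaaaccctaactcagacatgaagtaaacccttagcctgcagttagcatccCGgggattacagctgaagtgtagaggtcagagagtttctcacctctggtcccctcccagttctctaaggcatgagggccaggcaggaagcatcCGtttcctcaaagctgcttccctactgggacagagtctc
These stretches hold 16 CpGs for Epha3, 25 for Slit2, 9 for Epha2 and 2 for Robo4. RefSeq windows of 300 bases, from 250 before to 50 after a start, were available for 36 of the 41 members, all but Ntn1, Efnb3, Unc5d, Slit1 and Dcc. Of several windows of a gene the one nearest the start of its leading coding transcript was used, and it lay within 100 bases of that start for 26 of the 36. The members' windows held a median of 21.5 CpGs, ranging from 2 in Robo4 to 56 in Epha8, against a median of 7 over all 32851 RefSeq windows. The set of all windows was not narrowed by gene or to the window nearest a leading coding transcript, so it is not a like set. Whether the members differ from windows chosen in the same way from other genes was not tested, for CpGs or for the letters below. The median was 28 for the 27 windows of members called higher at day 10 and 18 for the 4 windows of members called lower. The letters TATAAA, read on both strands, were present in 5.56% of the members' windows, against 13.6% of all windows, and the 2 members that had them were Efnb2 and Slit2. In the Slit2 sequence above, they are the tataaa near the right end. The letters AGATAA, read in the same way, were in 5.56% of the members' windows and 11.2% of all windows, and CCGGAA in 8.33% and 14.9%.

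Of the 39 members that passed the low-count filter, 31 were called higher at day 10, against 42.7% of all genes tested, and 5 were called lower, against 39.4%. The 5 lower members were Epha2, Epha1, Efna3, Ntn1 and Ephb3, of which Ephb3 turned to a small positive, uncalled difference on TPM. The 3 that were not called were Efna4, Robo4 and Epha10. The median log2 change of the 39 was 2.08, against 0.056 over all genes tested. When a change of over 2-fold was required (edgeR glmTreat, adjusted p under 0.05), 28 members were higher, against 24.1% of all genes, and 2 were lower, Epha2 and Epha1, against 17.3%. The 4 day 10 libraries lay above all 4 day 0 libraries in CPM, counts scaled to library size by TMM, for 30 tested members, against 40.8% of all genes, and below them for 5, against 37.2%. Members given below with a log2 change and no p were called at an adjusted p under 0.05 unless said otherwise. Summed over all 41 members, the level was 1503 to 1601 TPM in the day 10 libraries and 274 to 316 TPM in the day 0 libraries. TPM moved the median log2 change of all genes to 0.39, in a limma-trend fit on log2(TPM + 1). There 65.2% of the called genes were higher, against 52.0% on counts, and a small difference in TPM is to be read against that shift. With the trend of the change on transcript length removed, 11 called members moved by over 1.5 times, all to a lower log2 change. The values were then 0.85 for Neo1 and 0.76 for Epha8, both under 2-fold, 1.45 for Efnb2, 1.70 for Robo1, 2.42 for Unc5b and 3.27 for Slit1. They were 3.41 for Epha7, 3.80 for Unc5d, 6.84 for Dcc, 9.63 for Unc5c and -2.09 for Ntn1, and all 11 stayed called.

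**Figure D1:**
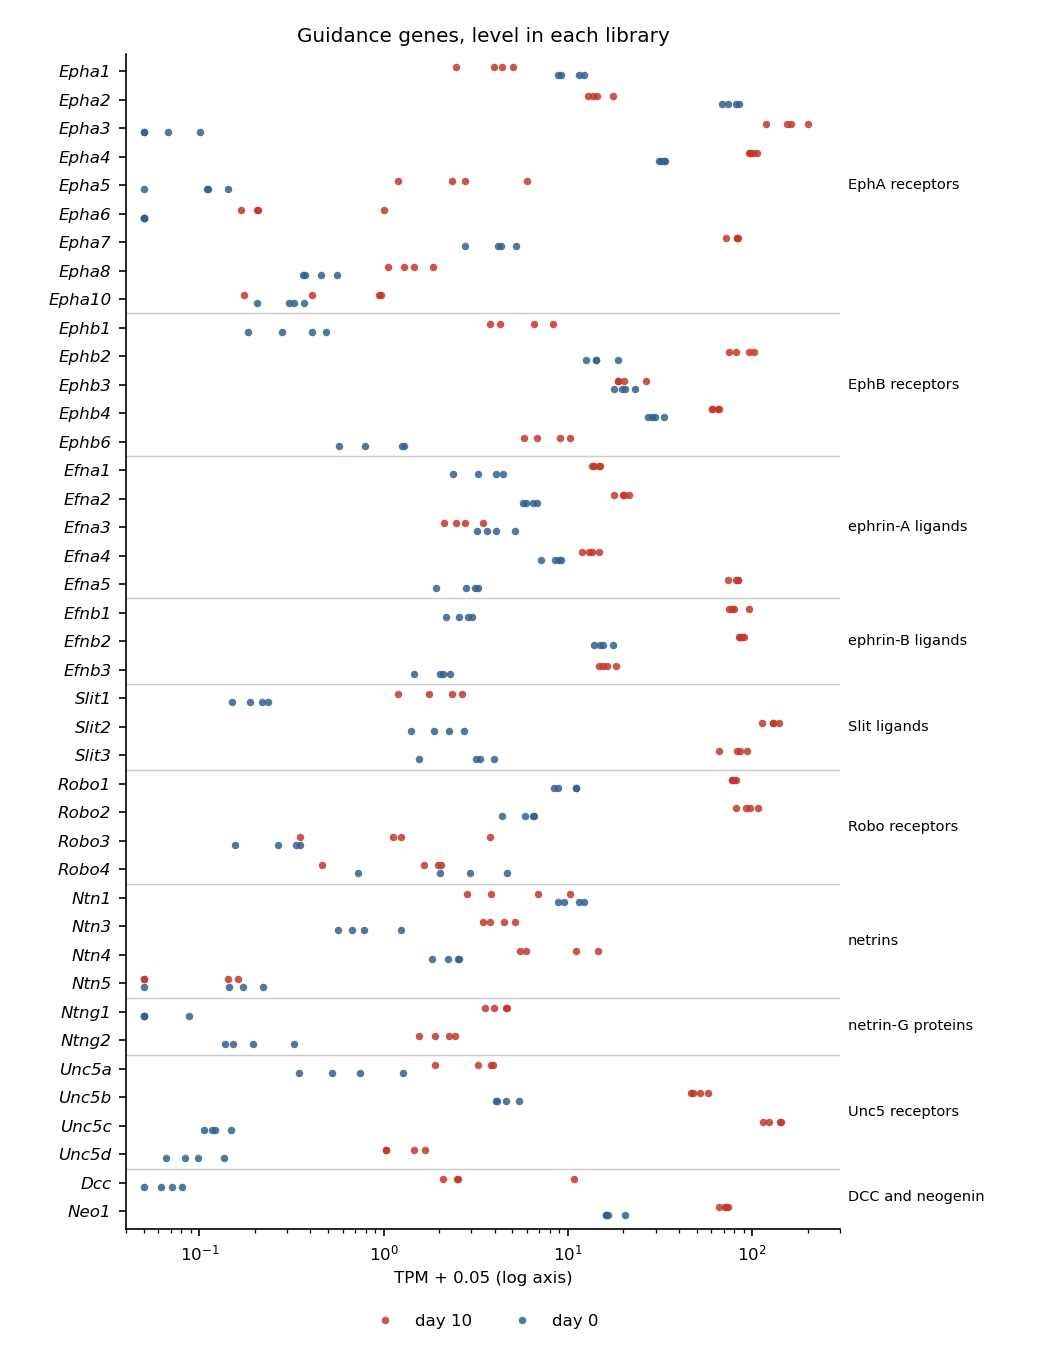
Level of each of the 41 guidance genes in each of the 8 libraries, as TPM + 0.05 on a log axis, with 4 red points for day 10 and 4 blue points for day 0 per gene, grouped by family. Epha3 and Unc5c lie at the far right at day 10 and at the far left at day 0, and Epha2 and Epha1 are the genes whose blue points lie clearly to the right.

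**Figure D2:**
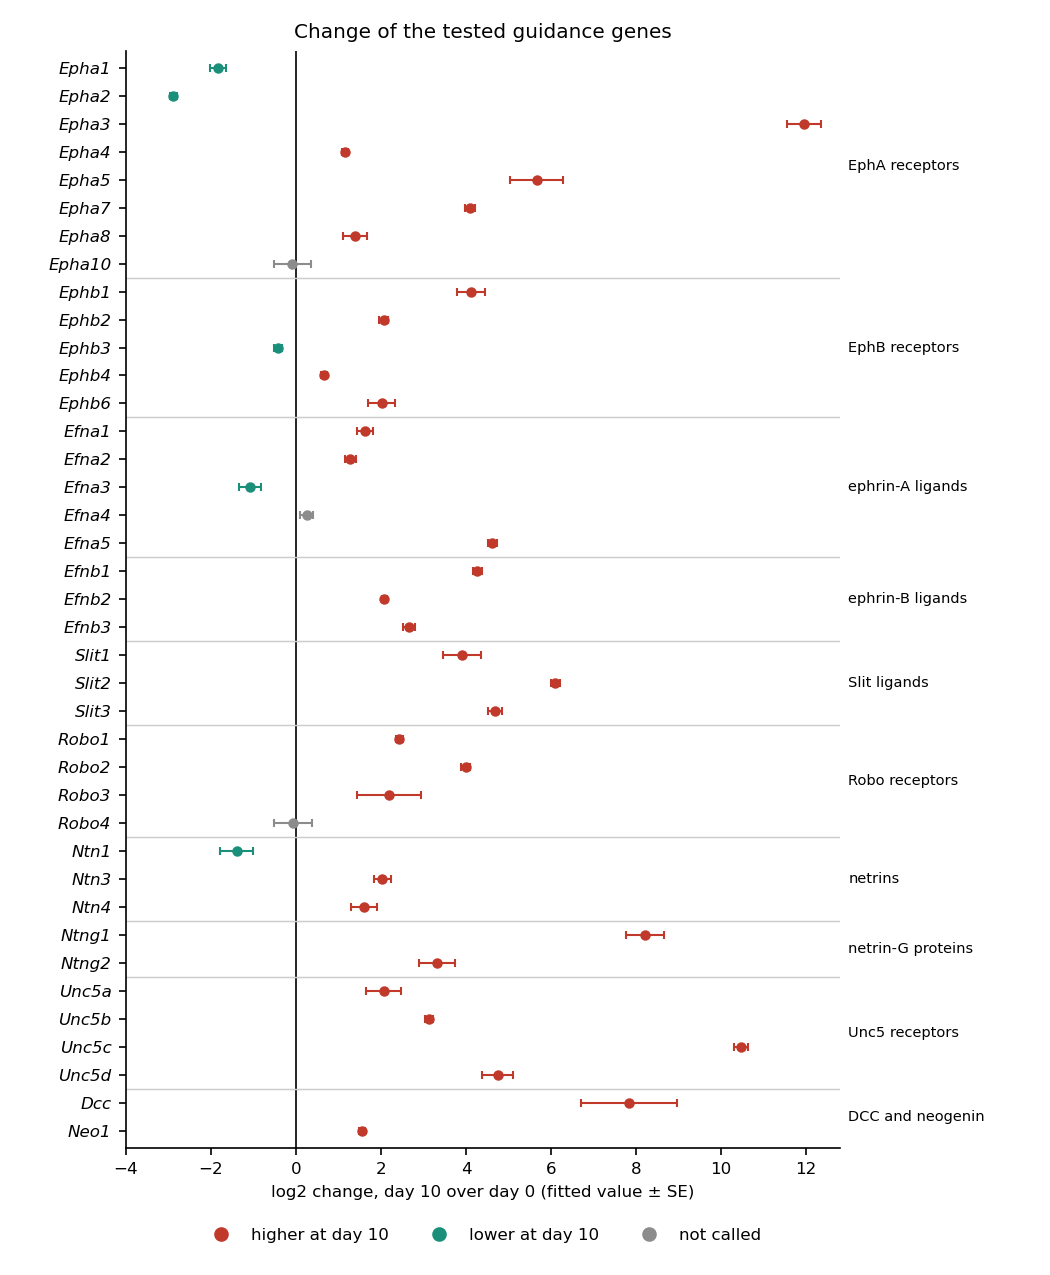
Fitted log2 change of day 10 over day 0 with its SE for the 39 tested guidance genes, red for called higher, green for called lower and grey for not called. The 31 red points reach from 0.66 for Ephb4 to 11.96 for Epha3, and the fitted values of Epha3 and Ntng1, with 2 and 1 counts at day 0, depend on the fit's prior count. The SE bars of Epha3 and Ntng1 are narrower than their exact intervals. Ephb3, green here, had a value of 0.042 on TPM and was not called there.

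The families differed in their summed levels on both days. Slits summed to 213 ± 15.01 TPM at day 10 and 5.13 ± 0.824 TPM at day 0 (SD, n = 4 each), a ratio of 41.5, and Unc5 receptors to 186 ± 17.6 TPM at day 10 and 5.31 ± 0.764 TPM at day 0 (SD, n = 4 each), a ratio of 35.1. The 2 netrin-Gs summed to 6.14 ± 0.867 TPM at day 10 and 0.163 ± 0.0811 TPM at day 0 (SD, n = 4 each). Their ratio was 37.7, at low levels on both days. Robo receptors summed to 177 ± 11.6 TPM at day 10 and 18.3 ± 1.78 TPM at day 0 (SD, n = 4 each) and ephrin-Bs to 186 ± 7.98 TPM at day 10 and 20.0 ± 1.37 TPM at day 0 (SD, n = 4 each). In both of these families the day 10 sum was over 9 times the day 0 sum, with ratios of 9.69 for Robos and 9.31 for ephrin-Bs. Ephrin-As summed to 131 ± 3.62 TPM at day 10 and 24.7 ± 1.42 TPM at day 0 (SD, n = 4 each). EphA receptors had the highest sum on both days, 364 ± 38.5 TPM at day 10 and 125 ± 10.5 TPM at day 0 (SD, n = 4 each), and the ratio was 2.92. EphB receptors summed to 186 ± 18.4 TPM at day 10 and 65.9 ± 6.89 TPM at day 0 (SD, n = 4 each), and Dcc with Neo1 to 75.3 ± 5.70 TPM at day 10 and 17.3 ± 2.12 TPM at day 0 (SD, n = 4 each). The 4 secreted netrins were the family whose sums overlapped between the days, with 12.9 to 28.2 TPM at day 10 and 11.4 to 15.6 TPM at day 0. The receptors for netrins thus reached higher sums at day 10 than the netrins themselves, in each of the 4 day 10 libraries.

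**Figure D3:**
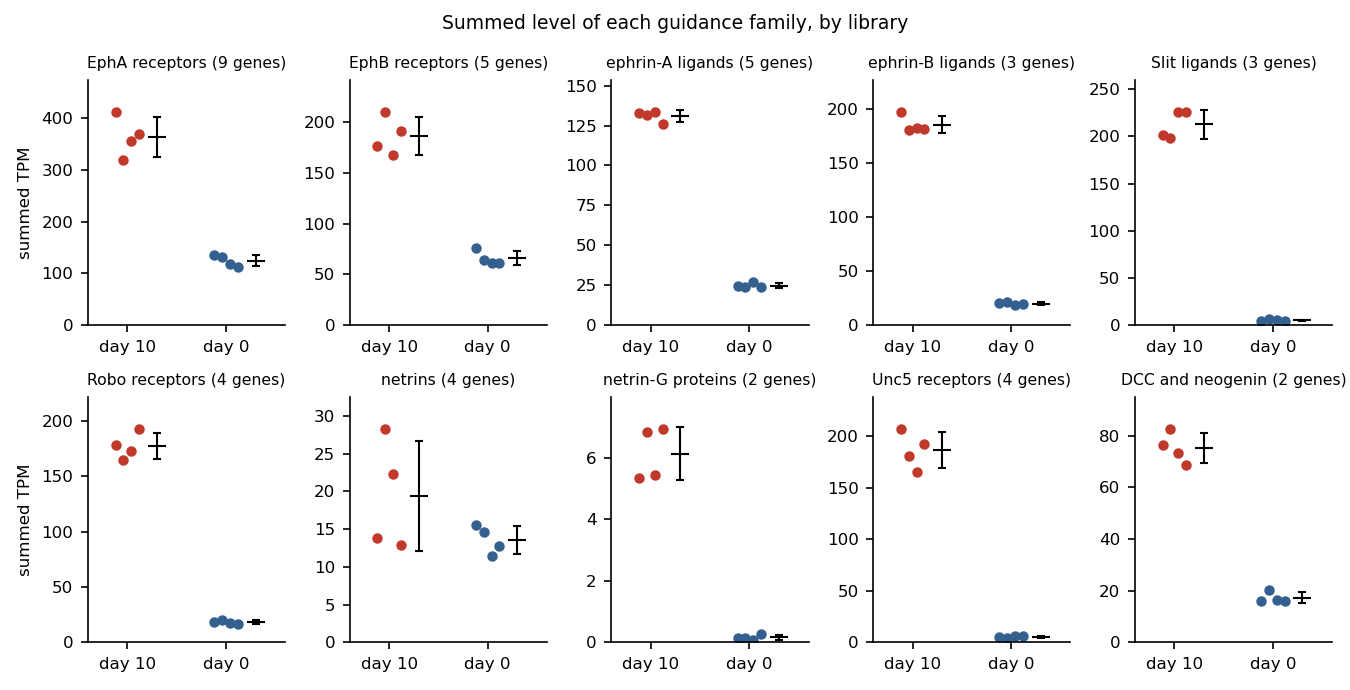
Summed TPM of each guidance family in each library, day 10 in red on the left and day 0 in blue on the right of each panel, with the mean and SD in black. The groups are apart in 9 of the 10 families, and in the netrin panel 2 of the 4 day 10 libraries lie within the day 0 range.

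Among ephrin-A ligands, Efna5 was the one that rose most. It had 81.6, 83.5, 83.9 and 74.4 TPM in day 10 libraries 1 to 4, against 2.76, 3.08, 1.89 and 3.22 TPM in day 0 libraries 1 to 4, and its log2 change was 4.62 ± 0.11 (edgeR adjusted p = 1.85e-13). Every day 10 library stood above 74 TPM and none at day 0 above 4. Efna1, first found as a gene induced by tumour necrosis factor in human endothelial cells, had 14.8, 14.7, 13.5 and 13.9 TPM at day 10, against 3.21, 4.42, 4.03 and 2.32 TPM at day 0. Efna2 had 21.5, 17.9, 20.2 and 20.0 TPM at day 10, against 6.40, 5.87, 6.72 and 5.66 TPM at day 0. The groups did not overlap for either gene, and the log2 changes were 1.63 ± 0.19 for Efna1 and 1.28 ± 0.13 for Efna2. Efna3 had 2.09, 3.41, 2.44 and 2.73 TPM at day 10, against 3.16, 3.595, 5.09 and 4.04 TPM at day 0. It was called lower, with a log2 change of -1.07 ± 0.26 (edgeR adjusted p = 0.00168). Its TPM groups overlapped while its CPM groups were apart. The limma-trend fit on log2(TPM + 1) gave a smaller change of -0.44, still called (limma-trend adjusted p = 0.0340). For this gene, 14.1% of the exonic bases are shared with a gene on the opposite strand, which counts without strand cannot separate. Efna4 had 12.97, 11.95, 13.4 and 14.7 TPM at day 10, against 8.91, 7.12, 9.09 and 8.42 TPM at day 0 . It was not called, with a log2 change of 0.25 ± 0.15 (edgeR adjusted p = 0.135). Its TPM groups were apart while its CPM groups overlapped, and the limma-trend fit on log2(TPM + 1) called it higher, at 0.60. Efna1, Efna3 and Efna4 are neighbours on chromosome 3, with 32.8 kb from Efna1 to Efna3, 10.4 kb from Efna3 to Efna4 and no protein-coding gene between. This cluster held a member called higher, a member called lower and a member not called.

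All 3 ephrin-Bs rose. Efnb1, which in mouse and human lies on the X chromosome, had 96.04, 74.8, 79.5 and 78.0 TPM in day 10 libraries 1 to 4, against 2.53, 2.15, 2.81 and 2.97 TPM in day 0 libraries 1 to 4, and its log2 change was 4.27 ± 0.11 (edgeR adjusted p = 3.76e-13). Efnb2, the artery marker, had 85.4, 90.7, 88.3 and 85.4 TPM at day 10, against 15.5, 17.4, 13.9 and 14.8 TPM at day 0. The change was 2.08 ± 0.066 on the log2 scale. Its day 10 libraries spanned only 85.4 to 90.7 TPM, and it already stood at 6th place of the 41 members at day 0. Efnb3 had 16.2, 15.6, 14.7 and 18.2 TPM at day 10, against 2.05, 2.24, 1.97 and 1.42 TPM at day 0. It changed by 2.66 ± 0.15 on the log2 scale, and no day 10 library of any ephrin-B overlapped a day 0 library.

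The EphA receptors changed in both directions. Epha3 (chr16:63543534-63864175, minus strand, GENCODE M21 on GRCm38), a receptor that binds ephrin-A5 and that in mouse is needed for the endocardial cushions of the heart, had 202, 118.5, 155 and 162 TPM in day 10 libraries 1 to 4, against 0.0507, 0, 0 and 0.0176 TPM in day 0 libraries 1 to 4. Its summed counts were 11321 at day 10 and 2 at day 0, a ratio of 4834. The 95% exact interval of this ratio was 1338 to 39919, and such intervals cover counting error only. The fitted log2 change was 11.96 ± 0.40 (edgeR adjusted p = 1.42e-09), and Epha3 stood at 1st place of the 41 members in TPM at day 10, against 38th at day 0. Of that day 10 TPM, 56.8% ± 2.81 (SD, n = 4) belonged to Epha3-205, an incomplete transcript of 811 bases, and Epha3-201, of 5663 bases, had 37.0 to 63.2 TPM, below the sums of Unc5c and Slit2 in every day 10 library. Within day 10, library 1 was the highest and library 2 the lowest.

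Epha7, a receptor of ephrin-A ligands with known shorter forms that lack the kinase, had 82.6, 72.5, 82.8 and 84.2 TPM at day 10, against 4.29, 5.20, 2.72 and 4.11 TPM at day 0. All day 10 libraries lay far above those of day 0, and the log2 change was 4.10 ± 0.12. Epha4, which unlike most family members binds ligands of both classes, had 107, 97.4, 96.5 and 102 TPM at day 10, against 33.8, 32.1, 33.3 and 31.0 TPM at day 0. It was the member with the second highest level at day 0, and its log2 change of 1.16 ± 0.065 was over 2-fold by edgeR glmTreat (adjusted p = 0.0100). This change fell to 0.59, under 2-fold, with the trend of the change on transcript length removed. It stayed called there (edgeR adjusted p = 1.03e-06). Epha5 had 2.70, 5.96, 1.146 and 2.31 TPM at day 10, against 0.0618, 0, 0.0598 and 0.0938 TPM at day 0. With 6 counts over all day 0 libraries, its log2 change was 5.66 ± 0.63. Epha8 had 1.79, 1.01, 1.24 and 1.42 TPM at day 10, against 0.506, 0.314, 0.326 and 0.405 TPM at day 0. Its log2 change of 1.39 ± 0.29 was called (edgeR adjusted p = 0.000485) but not as over 2-fold (adjusted p = 0.0723). At these levels the day 10 libraries still lay above every day 0 library.

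Epha2 (chr4:141301240-141329384, plus strand) ran the other way. This receptor, which is known to be present in mouse embryonic stem cells and which binds ephrin-A1, had 13.7, 17.6, 14.4 and 12.82 TPM in day 10 libraries 1 to 4, against 84.7, 82.1, 73.7 and 68.2 TPM in day 0 libraries 1 to 4. It was the member with the highest level at day 0 and the 19th at day 10, and its log2 change was -2.89 ± 0.081 (edgeR adjusted p = 7.68e-13). Its ligand gene Efna1 was called higher at the same time. Epha1, the receptor that gave the family its name, had 2.43, 5.01, 4.33 and 3.92 TPM at day 10, against 12.2, 11.4, 8.84 and 9.13 TPM at day 0. Its day 10 libraries all lay below those of day 0, with a log2 change of -1.84 ± 0.18 (edgeR adjusted p = 3.48e-07). Epha10, whose kinase domain is inactive, had 0.359, 0.924, 0.891 and 0.126 TPM at day 10, against 0.157, 0.318, 0.275 and 0.257 TPM at day 0. It was not called, and the sign of its log2 change of -0.084 ± 0.43 turned in 4 alternatives, among them those without day 10 library 4 and without day 0 library 2. Epha6 was not tested, having 20 counts over the day 10 libraries and 0 over the day 0 libraries, which makes it at least 5.69-fold higher at day 10 when 3 counts are set for the group at 0. The exact 95% interval of the ratio, which also holds the counting error of day 10, starts at 4.22.

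Of the EphB receptors, Ephb2 and Ephb4 had the highest levels at day 10. Ephb2 had 81.6, 103, 74.9 and 96.5 TPM in day 10 libraries 1 to 4, against 18.6, 14.2, 14.1 and 12.5 TPM in day 0 libraries 1 to 4. The groups were apart, with a log2 change of 2.07 ± 0.10 (edgeR adjusted p = 2.46e-10). Ephb4, the vein marker and a receptor of ephrin-B2, had 65.1, 65.9, 60.6 and 60.2 TPM at day 10, against 33.0, 29.7, 28.5 and 27.3 TPM at day 0. It was called higher but not over 2-fold, with a log2 change of 0.66 ± 0.065 (edgeR adjusted p = 3.62e-07). With the trend of the change on transcript length removed its log2 change was 0.096 (edgeR adjusted p = 0.189), which is not a call. Ephb1 had 4.25, 8.24, 3.74 and 6.53 TPM at day 10, against 0.133, 0.439, 0.230 and 0.359 TPM at day 0. Ephb6, a receptor without kinase activity, had 5.70, 6.72, 10.2 and 8.996 TPM at day 10, against 1.24, 0.746, 0.523 and 1.22 TPM at day 0. Both were low and apart between the days, with log2 changes of 4.11 ± 0.32 for Ephb1 and 2.02 ± 0.32 for Ephb6. Ephb3 had 20.0, 26.5, 18.6 and 18.7 TPM at day 10, against 23.0, 19.6, 17.7 and 20.4 TPM at day 0, and its groups overlapped in TPM but not in CPM. On counts it was called lower, with a log2 change of -0.42 ± 0.10 (edgeR adjusted p = 0.00154), and on TPM its difference turned to 0.042 and was not called (limma-trend adjusted p = 0.779). The ephrin-B2 and EphB4 genes thus stood at 85.4 to 90.7 and 60.2 to 65.9 TPM at day 10, against 13.9 to 17.4 and 27.3 to 33.0 TPM at day 0.

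All 3 Slit genes rose. Slit2 (chr5:47983138-48307733, plus strand) had 113, 130.0, 140.6 and 130.2 TPM in day 10 libraries 1 to 4, against 2.69, 2.20, 1.83 and 1.35 TPM in day 0 libraries 1 to 4, and its log2 change was 6.102 ± 0.11 (edgeR adjusted p = 1.46e-14). Slit3 had 86.2, 65.9, 82.5 and 94.0 TPM at day 10, against 1.51, 3.91, 3.29 and 3.14 TPM at day 0. Its log2 change was 4.69 ± 0.17, and Slit2 lay above Slit3 in each day 10 library. Slit1, known mostly from the nervous system, had 1.72, 2.30, 2.60 and 1.14 TPM at day 10, against 0.138, 0.1001, 0.169 and 0.187 TPM at day 0. It changed by 3.90 ± 0.45 on the log2 scale, at 15 counts over the day 0 libraries. Slit2 and Slit3 together made up nearly all of the Slit level at day 10, and Slit1 stayed under 3 TPM.

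Their receptors Robo1 and Robo2 rose with them. Robo1 had 77.8, 79.6, 78.0 and 82.2 TPM at day 10, against 11.05, 11.01, 8.74 and 8.36 TPM at day 0, and changed by 2.43 ± 0.084 on the log2 scale (edgeR adjusted p = 5.43e-12). Robo2 had 97.3, 81.4, 93.0 and 108 TPM at day 10, against 6.39, 6.48, 4.34 and 5.81 TPM at day 0, and changed by 3.99 ± 0.11 (edgeR adjusted p = 1.16e-12). In TPM the order of these 2 receptors changed between the days. Robo2 was the higher in each day 10 library and Robo1 the higher in each day 0 library. In CPM Robo1 was the higher in day 10 libraries 1, 2 and 3, at 215, 190 and 201 against 198, 160 and 198. Robo2 was the higher in CPM in day 10 library 4 alone, at 216 against 208. Robo1 and Robo2 lie next to each other on chromosome 16, 846 kb apart with no protein-coding gene between, and Robo3 and Robo4 lie 0.6 kb apart on chromosome 9. The second pair was low on both days. Robo3, which in mammals steers the crossing of the midline by commissural axons, had 1.19, 3.74, 0.302 and 1.07 TPM at day 10, against 0.285, 0.217, 0.302 and 0.107 TPM at day 0. Its groups overlapped in CPM, its log2 change was 2.19 ± 0.75 (edgeR adjusted p = 0.0211), and without day 10 library 2 it was 1.20. The call was lost without day 0 library 2 and without day 0 library 4, at edgeR adjusted p of 0.0569 and 0.0657. Robo4, the Robo of endothelial cells, had 2.004, 0.413, 1.93 and 1.61 TPM at day 10, against 0.680, 2.89, 4.602 and 1.98 TPM at day 0. The groups overlapped, and it was not called, with a log2 change of -0.072 ± 0.44 (edgeR adjusted p = 0.883). The sign of that value turned without day 10 library 2, where Robo4 was lowest at day 10, and without day 0 library 2 or 3. Of 12 pan-endothelial markers, 11 were called higher, against 42.7% of all genes tested. Their summed level was 269.6 to 322 TPM at day 10, against 43.7 to 52.9 TPM at day 0. None of the 12 was at 0 on either day. Their part in the changes of Efnb2, Ephb4, Unc5b and Robo4 was not tested.

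Netrin genes themselves were low and mixed. Ntn1, the netrin first described as a guide of spinal commissural axons, had 2.78, 10.2, 6.84 and 3.77 TPM at day 10, against 12.2, 11.5, 8.80 and 9.52 TPM at day 0. It was called lower, with a log2 change of -1.40 ± 0.39 (edgeR adjusted p = 0.0110). Day 10 libraries 2 and 3 were the higher pair, and in TPM library 2 reached the day 0 range while in CPM it stayed below it. Ntn4, a basement membrane netrin, had 5.89, 14.6, 10.97 and 5.43 TPM at day 10, against 2.19, 2.47, 1.78 and 2.51 TPM at day 0. It changed by 1.599 ± 0.30 on the log2 scale, again with libraries 2 and 3 as the higher pair at day 10. Ntn3 had 5.10, 3.40, 4.45 and 3.71 TPM at day 10, against 1.19, 0.518, 0.728 and 0.620 TPM at day 0, with a log2 change of 2.03 ± 0.21 and no overlap. Ntn5 was not tested, with 2 counts over the day 10 libraries and 5 over the day 0 libraries.

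The netrin-Gs, which are held by a lipid anchor and bind the NGL proteins in place of DCC, both rose at low levels. Ntng1 had 3.49, 4.61, 3.93 and 4.55 TPM at day 10, against 0.0378, 0, 0 and 0 TPM at day 0. It had 510 counts over the day 10 libraries and 1 over the day 0 libraries, a ratio of 436 with a 95% exact interval of 77.8 to 17235. Its fitted log2 change was 8.21 ± 0.45 (edgeR adjusted p = 6.11e-10), and 9.92 without day 0 library 1, which held the 1 count. Ntng2 had 1.84, 2.23, 1.51 and 2.39 TPM at day 10, against 0.102, 0.146, 0.0878 and 0.278 TPM at day 0. Its change was 3.32 ± 0.42 on the log2 scale, at 6 counts over the day 0 libraries. Of its exonic bases, 13.98% are shared with a gene on the same strand. Among the NGL genes, Lrrc4c had a mean of 1.74 ± 0.258 CPM at day 10 and no count at day 0 (SD, n = 4), and it was named for being the partner of Ntng1, after its values were seen.

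Among netrin receptors, Unc5c rose most. Unc5c (chr3:141465216-141834924, plus strand), a receptor of netrin-driven repulsion known from the migration of cerebellar neurons in mouse, had 143.5, 122.96, 115 and 141.97 TPM in day 10 libraries 1 to 4, against 0.0557, 0.0992, 0.0717 and 0.0667 TPM in day 0 libraries 1 to 4. Its summed counts were 25855 at day 10 and 15 at day 0, and its log2 change was 10.48 ± 0.16 (edgeR adjusted p = 8.01e-15). Unc5c stood at 2nd place of the 41 members at day 10 and at 35th at day 0. Unc5b, known from sprouting vessels, had 57.6, 52.2, 46.7 and 47.8 TPM at day 10, against 4.03, 4.07, 4.58 and 5.39 TPM at day 0. The groups were again apart, with a log2 change of 3.13 ± 0.10 (edgeR adjusted p = 3.78e-12). Unc5a had 3.86, 3.78, 3.20 and 1.85 TPM at day 10, against 0.698, 0.296, 1.23 and 0.477 TPM at day 0, with a log2 change of 2.06 ± 0.40. Unc5d had 1.62, 1.42, 0.982 and 0.977 TPM at day 10, against 0.0159, 0.0482, 0.0856 and 0.0336 TPM at day 0, with a log2 change of 4.75 ± 0.37. The 4 Unc5 genes were all called higher and over 2-fold. Their order in TPM at day 10 was Unc5c, Unc5b, Unc5a and Unc5d in each library.

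Neo1, the neogenin gene, whose protein also binds the repulsive guidance molecules, had 73.7, 71.7, 71.4 and 66.4 TPM at day 10, against 16.2, 20.4, 16.5 and 16.0 TPM at day 0. The groups were apart, with a log2 change of 1.55 ± 0.066 (edgeR adjusted p = 4.38e-11). Dcc had 2.497, 10.8, 2.05 and 2.47 TPM at day 10, against 0.0307, 0.0215, 0.0121 and 0 TPM at day 0. It had 1225 counts over the day 10 libraries, 752 of them in library 2, and 4 over the day 0 libraries. The log2 change of Dcc was 7.84 ± 1.13 (edgeR adjusted p = 0.000329), and 6.93 without day 10 library 2 (edgeR adjusted p = 1.01e-11). Neogenin was thus the higher of the 2 attractive receptors in each of the 8 libraries.

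The day 10 libraries differed among themselves in some members. Library 1 was the highest day 10 library in 16 of the 39 tested members, library 2 in 11, and libraries 3 and 4 in 6 each. By Dixon's rule for groups of 4, library 2 was apart from the other 3 in Dcc and Ephb1 only. In CPM, Dcc had 10.7, 46.4, 8.98 and 11.5 in day 10 libraries 1 to 4, and Ephb1 had 7.51, 13.7, 8.03 and 7.90. Epha5, Robo3 and Ntn1 are given beside them because library 2 was the highest there too, a choice made after their values were seen, and their gaps did not pass that rule. Epha5 had 4.78, 11.98, 3.21 and 4.99 CPM, Robo3 1.47, 7.59, 0.584 and 2.41 CPM and Ntn1 6.11, 23.3, 16.1 and 8.41 CPM in day 10 libraries 1 to 4. Epha3 was lowest in library 2, with 247, 133, 187 and 182 CPM. The same library had the highest sum of 15 neural and neuronal markers, 99.2, 248, 100.1 and 96.9 TPM in day 10 libraries 1 to 4, against 214, 200.4, 217 and 218 TPM in day 0 libraries 1 to 4. The day 0 sum is mostly Stmn2, a microtubule regulator of neurons that was singled out after its values were seen, with 136 to 154 TPM. Without Stmn2 the sums of the other 14 markers were 97.1, 240.1, 97.1 and 94.6 TPM at day 10, against 76.7, 64.7, 69.6 and 64.5 TPM at day 0. Of the 15, 12 were tested, 7 of them called higher, against 42.7% of all genes tested, and 2 lower, against 39.4%. None of the 15 was at 0 over all libraries of a day. Other marker lists also had their highest or lowest day 10 sum in library 2. Visceral endoderm markers summed to 411, 1136, 741 and 838 TPM in day 10 libraries 1 to 4 and arterial markers to 65.6, 99.5, 72.3 and 78.8 TPM, with library 2 the highest. Fibroblast and matrix markers summed to 5329, 3278, 4529 and 4352 TPM, smooth muscle markers to 1011, 637, 891 and 796 TPM and blood markers to 216, 149, 213 and 197 TPM, with library 2 the lowest. The epicardial and neural crest sums were also lowest there, and the pluripotency sum highest. The part of these markers in the values of Dcc, Ephb1, Epha5, Robo3 and Ntn1 was not tested. The log2 changes without library 2 were 3.86 for Ephb1, 5.13 for Epha5 and -1.81 for Ntn1, all called (edgeR adjusted p of 9.20e-10, 1.35e-08 and 0.000642).

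**Figure D4:**
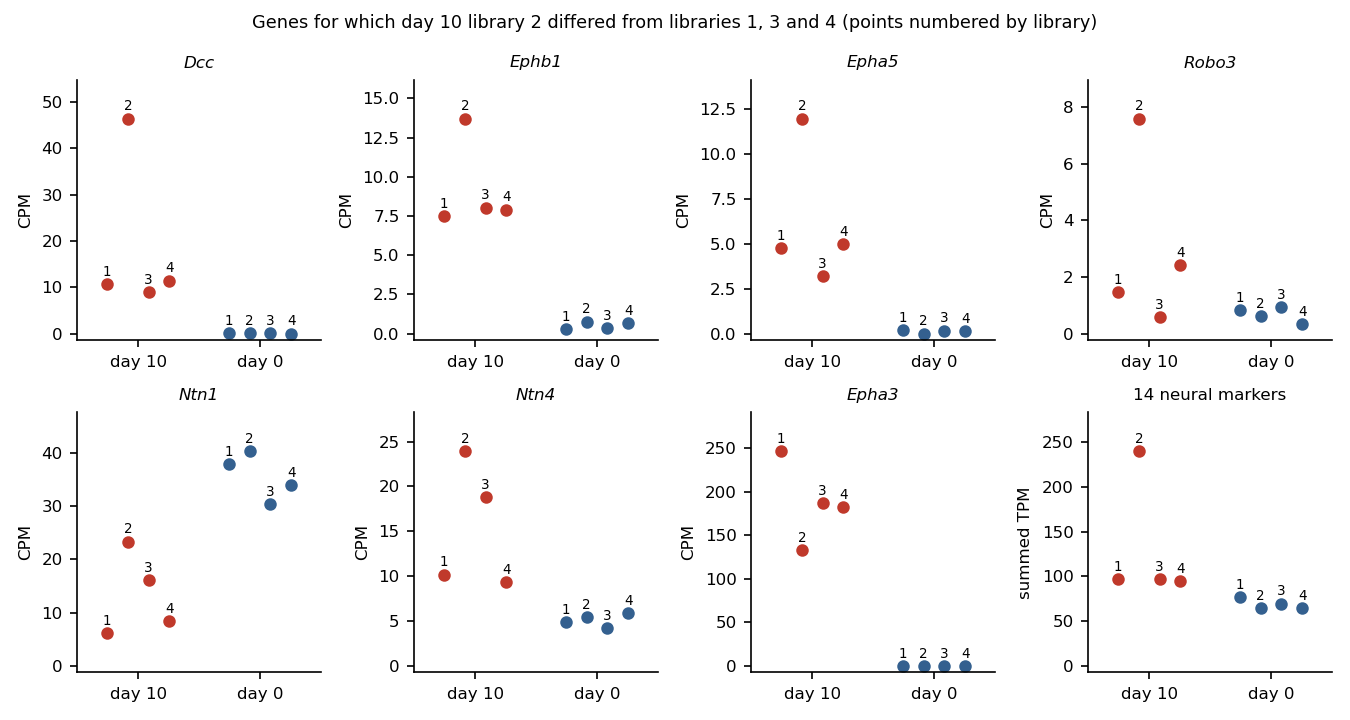
CPM of 7 guidance genes and the summed TPM of 14 neural markers (without Stmn2) in each library, day 10 in red on the left and day 0 in blue on the right, with points numbered by library. The genes were chosen after their values were seen. Day 10 library 2 is the highest day 10 point in 7 panels and the lowest in that of Epha3.

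Most member isoforms that passed the low-count filter were called. Of 102 member transcripts that passed the filter, 79 were called higher at day 10, against 26.8% of all transcripts tested, and 4 lower, against 23.8%. The 4 lower ones, Epha2-201, Epha1-201, Efna3-201 and Ephb3-201, belong to genes called lower. Whether isoforms of 1 gene moved apart could be tested (edgeR diffSpliceDGE, gene-level F test, adjusted over 9382 genes) in 20 members, and it was called in 4, Ephb2, Unc5c, Epha4 and Slit2, against 35.8% of all genes tested. Without day 10 library 3 it was called in 2 members. The split of reads between isoforms is the quantifier's estimate.

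Ephb2 had the smallest p of these calls (edgeR diffSpliceDGE adjusted p = 1.64e-05). Ephb2-202, the form of 10902 bases with a 3′ untranslated region of 7786 bases, had 10.2, 9.12, 8.15 and 7.41 TPM at day 10, against 0.369, 0.810, 0.563 and 0.563 TPM at day 0, a log2 change of 3.43 ± 0.24. Ephb2-201, with a coding length of 2961 bases beside 2958 in Ephb2-202 and a 3′ untranslated region of 1717 bases, had 12.3, 12.5, 10.7 and 11.4 TPM at day 10, against 3.04, 4.39, 3.29 and 3.02 TPM at day 0, a log2 change of 1.30 ± 0.14. A retained intron transcript of 2519 bases had 1.89, 3.13, 2.54 and 1.99 TPM at day 10, against 2.33, 2.09, 1.148 and 0.803 TPM at day 0, and was not called (edgeR adjusted p = 0.777). The long form thus had a larger log2 change than Ephb2-201. The largest part of the gene's TPM at day 10, 36.3 to 52.4%, went to Ephb2-205, a retained intron of 599 bases, although it held 491 counts at day 10 beside 2781 in Ephb2-202.

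Unc5c at day 10 was split between coding forms and intron-bearing ones. Unc5c-202 had 64.1, 50.7, 54.2 and 62.0 TPM at day 10, against 0, 0.0345, 0 and 0.0157 TPM at day 0, and Unc5c-201 had 23.3, 17.7, 14.3 and 19.7 TPM at day 10, against 0, 0, 0 and 0 TPM at day 0. Unc5c-208, a single-exon transcript annotated as a retained intron, had 29.0, 27.2, 23.3 and 31.2 TPM at day 10, against 0.0557, 0.0647, 0.0717 and 0.0376 TPM at day 0, and it took 20.2 to 22.1% of the gene's TPM at day 10, against 56.3% or more in each day 0 library. The change in isoform use (edgeR diffSpliceDGE adjusted p = 0.000423) rested on few reads at day 0, where Unc5c-202 held 5 counts, Unc5c-201 0 and Unc5c-208 10. Their coding sequences differ by 1 exon of 57 bases, at chr3:141786857-141786913 on the plus strand of GRCm38 (GENCODE M21), which Unc5c-201 has and Unc5c-202 lacks. A like exon of 33 bases, at chr10:60777185-60777217 on the minus strand, separates Unc5b-201 from Unc5b-203, and exons of 12 and 24 bases separate forms of Slit2. The transcripts also differ outside the coding sequence, with 3′ untranslated regions of 900 bases in Unc5c-201 and 6355 in Unc5c-202, and of 2618 in Unc5b-201 and 634 in Unc5b-203, so that their levels do not measure the exon alone. All 4 exons keep the reading frame. They are shown from the transcript sequences with the exon in capitals and 15 bases of the neighbouring exons on each side.
Unc5c exon of 57 bases, chr3:141786857-141786913, plus strand: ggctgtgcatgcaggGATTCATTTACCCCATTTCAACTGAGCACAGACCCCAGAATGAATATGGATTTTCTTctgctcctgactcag
Unc5b exon of 33 bases, chr10:60777185-60777217, minus strand: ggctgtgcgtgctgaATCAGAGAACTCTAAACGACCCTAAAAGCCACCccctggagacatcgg
Slit2 exon of 24 bases, chr5:48220967-48220990, plus strand: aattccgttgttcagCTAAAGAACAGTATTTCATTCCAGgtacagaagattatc
Slit2 exon of 12 bases, chr5:48191003-48191014, plus strand: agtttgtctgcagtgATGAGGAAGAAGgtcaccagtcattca
At day 10 the form with the exon was the lower in Unc5c and the higher in Unc5b. Unc5b-201 had 38.1, 40.9, 35.9 and 34.9 TPM at day 10, against 3.29, 1.93, 2.43 and 2.84 TPM at day 0, and Unc5b-203, without the exon, had 16.9, 10.01, 9.12 and 10.3 TPM at day 10, against 4.95e-07, 1.90, 1.67 and 2.35 TPM at day 0. For Slit2, the form with both small exons, Slit2-202, had 17.4, 23.6, 16.5 and 21.8 TPM at day 10, against 0.0220, 0.478, 0 and 0.00769 TPM at day 0. Slit2-216, which lacks the exon of 24 bases, had 13.8, 6.80, 9.36 and 6.96 TPM at day 10, against 0.589, 0, 0.290 and 0.284 TPM at day 0, and Slit2-208, which lacks both, had 7.68, 8.11, 10.9 and 9.75 TPM at day 10, against 0, 0, 0.0551 and 0 TPM at day 0. These 3 coding forms of Slit2 were called higher, with log2 changes of 6.76 ± 0.89 for Slit2-202, 4.55 ± 0.78 for Slit2-216 and 8.95 ± 0.67 for Slit2-208. A pair of further coding transcripts of Slit2, of 767 and 7785 bases, held 18 and 38 counts at day 10, none at day 0, and were not tested. The call of a change in isoform use in Slit2 (edgeR diffSpliceDGE adjusted p = 0.0389) was lost when any 1 of 6 of the 8 libraries was left out, all but day 0 libraries 2 and 3, with edgeR adjusted p of 0.0761 to 0.394.

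The forms of Epha4 were divided differently in each day 10 library. Epha4-201 had 17.6, 33.4, 21 and 3.21 TPM at day 10, against 1.19, 0.969, 0.785 and 0.913 TPM at day 0, and Epha4-205, annotated as a target of nonsense-mediated decay with a coding length equal to that of Epha4-201, had 19.1, 1.12, 12.2 and 36.9 TPM at day 10, against 10.6, 13.4, 10.9 and 10.1 TPM at day 0. In day 10 library 4 Epha4-201 was at its lowest and Epha4-205 at its highest, and in library 2 it was the reverse, while the gene's sum stayed between 96.5 and 107 TPM. The call for Epha4 (edgeR diffSpliceDGE adjusted p = 0.00873) was lost without day 10 library 3 (adjusted p = 0.0524).

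**Figure D5:**
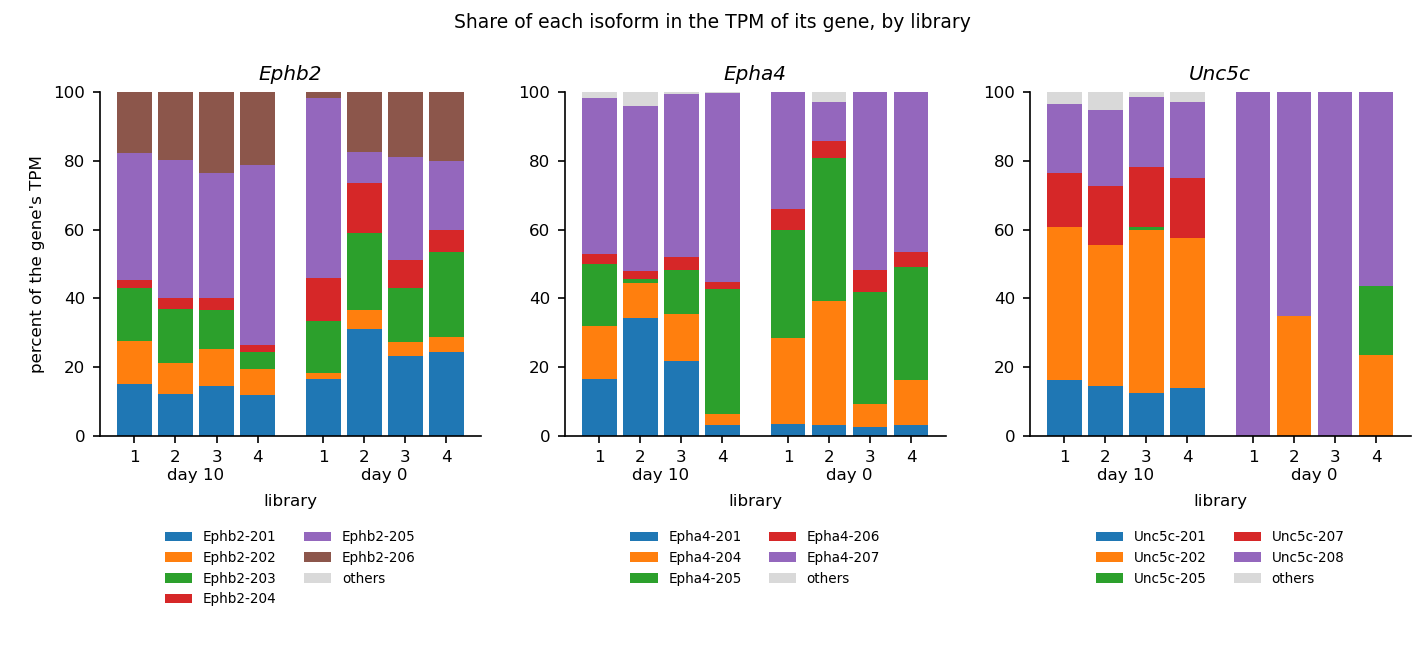
Percent of the gene's TPM held by each isoform of Ephb2, Epha4 and Unc5c in each library, day 10 libraries on the left and day 0 libraries on the right of each panel, with isoforms under 5% on both days pooled as others. The Unc5c bars at day 0 stand for 0.0557 to 0.0992 TPM in all, and the Epha4 bars differ more between day 10 libraries than the gene's level does.

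For Epha3 the level per length also depends on the isoform. Epha3-205, an incomplete coding transcript of 811 bases, had 108, 67.4, 87.2 and 97.6 TPM in day 10 libraries 1 to 4, and Epha3-201, the form of 5663 bases, had 63.2, 37.0, 52.1 and 47.8 TPM. In estimated counts Epha3-205 held 1722 at day 10 and Epha3-201 held 8151, so most reads lay in the long form and most of the TPM in the short one. Epha7-202, with a coding length of 1830 bases against 2994 in Epha7-201, is a shorter form of the receptor, and it had 13.5, 10.7, 11.8 and 11.3 TPM at day 10, against 0.353, 0.184, 0.164 and 0.152 TPM at day 0. Epha7-201 had 42.3, 31.5, 38.9 and 41.7 TPM at day 10, against 0, 1.13, 1.94 and 1.38 TPM at day 0, and a change in isoform use was not called (edgeR diffSpliceDGE adjusted p = 0.670), although without day 0 library 1 it was, at an adjusted p of 0.00136.

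Genes that act with these ligands and receptors were read from lists of known partners. Of 29 partners of Eph-ephrin signalling, 20 were called higher, against 42.7% of all genes tested, and 5 lower, against 39.4%, with a median log2 change of 0.60. Kalrn, an exchange factor downstream of EphB receptors, had 223 ± 31.4 CPM at day 10 and 12.76 ± 1.49 CPM at day 0 (SD, n = 4 each), a log2 change of 4.12. Sdcbp (syntenin, which binds the tails of ephrin-Bs) changed by 1.80 and Adam10, a protease that cuts ephrin-As, by 1.45 on the log2 scale. Of 18 partners of Slit-Robo signalling, 14 were higher and 4 lower, against the same shares, with a median log2 change of 0.51, led by the heparan sulfate proteoglycans Sdc2 and Sdc3, with log2 changes of 3.40 and 4.49, and by Srgap1, a GTPase-activating protein that binds Robo1, with 2.24. Of 21 partners of netrin signalling, 14 were higher and 3 lower, again against 42.7% and 39.4% of all genes, with a median log2 change of 1.52. Flrt2, a ligand of Unc5 receptors, had 165 ± 14.5 CPM at day 10 and 16.3 ± 1.54 CPM at day 0 (SD, n = 4 each), a log2 change of 3.34. Ablim1, an actin-binding protein, changed by 3.27 and Maged1, which binds Unc5 receptors, by 1.97.

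Semaphorins, plexins and neuropilins, a further guidance system, changed in both directions. Of 30 tested, 24 were higher, against 42.7% of all genes tested, and 5 lower, against 39.4%, with a median log2 change of 1.90 beside 2.08 for the 39 tested Eph, Slit and netrin genes. The 3 with the smallest p were Sema5a, Sema3a and Sema3d, with log2 changes of 4.94, 6.90 and 6.34.

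Markers of cell types were read from lists in the same fit. Pluripotency markers were called lower in 10 of 10, against 39.4% of all genes tested. They summed to 163 to 226 TPM at day 10, against 4776 to 5359.6 TPM at day 0. Called higher were 10 of 10 tested cardiomyocyte, 9 of 9 fibroblast and matrix, 8 of 9 smooth muscle, 7 of 7 epicardial and mesothelial, 6 of 6 tested venous and lymphatic, 6 of 8 tested arterial, 7 of 8 tested blood and 6 of 8 visceral endoderm markers, against 42.7% of all genes tested. In each of the arterial and visceral endoderm lists, 1 marker was called lower, against 39.4% of all genes tested. Of 8 neural crest and glial markers, 3 were tested, 1 of them higher and 1 lower, against 42.7% and 39.4% of all genes tested. Sox10 of this list was at 0 at day 0. Also at 0 at day 0 were Bmx of the arterial, Lyve1 of the venous, Hbb-y and Adgre1 of the blood and Alb of the endoderm list, and no marker was at 0 over all day 10 libraries. Markers of several cell types were thus higher at day 10, and which type carries a given guidance gene was not tested.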

How the data were processed

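Per the labels' protocols, RNA was extracted with TRI Reagent and libraries were made with a SMART-Seq total RNA kit that removes ribosomal RNA. The submitters' processing notes name kallisto version 1 and DESeq2 for processing. The reference of that step and its build were not given in the sources used here. As deposited by the authors, tables hold an estimated count and a TPM value for each of 126126 transcripts per library, per the file headers. Transcript identifiers were joined without version to GENCODE M21 (117992 matched, 93.6%), and estimated counts, summed per gene and rounded, and TPM, summed per gene, were used. The 8134 unmatched transcripts stayed out. R 4.3.3 with edgeR 4.0.16 (filterByExpr, TMM, robust quasi-likelihood fit, Benjamini-Hochberg) gave the main tests, for genes and for transcripts; the same steps were tested on simulated data. Alternatives used DESeq2 1.42.0 and limma 3.58.1. Use of strand in the counting is likewise not given.

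The 41 genes and the partner and marker lists were chosen with earlier results of these data known. Every guidance gene was named or counted, with values per library for those reaching 1 CPM on either day; from each partner list, at most the 3 called genes with the smallest p were named, and markers were counted. Exceptions are named as such. The libraries' depth stands with the description of the samples.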

Additional observations from a re-analysis of the deposited data

Results flagged for a closer look

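A library was set apart where its gap to the nearest of the other 3, divided by the range of its group, passed Dixon's critical value for 4 values at the 95% level. Of 81 groups of 4 libraries examined, 5 had such a library, and chance flags about 1 in 20 groups. At day 10, library 2 was apart for Dcc, at 46.4 CPM against 8.98 to 11.5 CPM in the other day 10 libraries. Library 2 was also apart for Ephb1, at 13.7 CPM against 7.51 to 8.03 CPM. For Ntng1, day 10 library 1 was the low one, at 6.62 CPM against 8.64 to 8.91 CPM. At day 0, library 2 was apart for Ephb2, at 29.7 CPM against 23.8 to 24.1 CPM. Day 0 library 1 was apart for Ntng1, at 0.0922 CPM, which is 1 count, against 0 in the other day 0 libraries.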

How the results depend on the processing

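Of the 39 tested guidance genes, 33 kept their direction and their side of the threshold in every alternative that gave a value. Members called higher numbered 30 to 32 in all of them, against 31.5% to 51.5% of all genes tested in the same settings. Members called lower numbered 4 or 5, against 18.1% to 40.4%. Ephb3 turned to 0.042, 0.044 and 0.042 (log2) in the 3 limma-trend fits on TPM. Epha10 turned to 0.534 with average transcript length as offset and to 0.297 on unfiltered log2(TPM + 1), and ranged from -0.281 to 0.180 with a library left out. Robo4 ranged from -0.307 to 0.229 with a library left out. Over all alternatives its lowest value was -1.16, and it was called in none of them. Efna4 was called higher with the length trend removed (0.479) and on TPM (0.605 to 0.657). Ephb4 lost its call with the length trend removed (0.096). Robo3 lost its call without the low-count filter (edgeR adjusted p = 0.0667) and with the length trend removed (edgeR adjusted p = 0.0682). With average transcript length as offset, Ephb6 was at 2.65 and Slit1 at 3.30 (log2). On TPM, 9 to 15 called members moved by over 1.5 times, most to a lower log2 change. These fits add 1 or 0.1 TPM before the log is taken. With 1 TPM added and the filter kept, 13 of 34 moved, 11 of them to a lower log2 change. With 0.1 TPM added, 9 of 34 moved, 6 of them to a lower one. The log2 change of Ntng1 moved by -5.86 with 1 TPM added and by -2.92 with 0.1 TPM. The part of the added value in each move was not tested. A change in isoform use was called in 4 members, and in 2 to 6 with a library left out. Unc5c lost that call without the low-count filter (edgeR adjusted p = 0.0559). Efnb1, Epha7, Ephb3, Ephb6, Ntn1 and Unc5b gained it when 1 library was left out. Same-numbered libraries of the days had deviations correlated at -0.00143 to 0.0649, and 3 of 8 libraries correlated best with their own number. The labels do not say whether the numbers pair the libraries. A weak pairing could give such values, so they do not settle it, and the main fit was unpaired. With the replicate block, 31 members were called higher, against 42.4% of all genes tested, and 5 lower, against 39%. Under it 28 were over 2-fold higher and 2 lower, 74 isoforms were higher and 5 lower, and isoform use changed in 3. Shares over all genes or transcripts were not computed for these last counts. Slit2 and Epha4 lost the call of a change in isoform use under the block, and Ntn1 gained it (edgeR diffSpliceDGE adjusted p = 0.0348). Depth limits Epha3, Ntng1, Ntng2, Dcc, Epha5, Unc5d, Epha6 and Ntn5, which had few counts at day 0.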
